A study of Mus musculus with 3 samples.

Results

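The genes described here encode endocytic C-type lectins, namely langerin (Cd207) and members of 3 families. The families are the DC-SIGN family (Cd209a, Cd209b and Cd209d), the macrophage galactose-type lectins (Clec10a and Mgl2), and the mannose receptor family (Mrc1 and Mrc2). The genes were taken by symbol: a probe set of the array belonged to a gene if the platform annotation gave that symbol and no other. All 8 genes were found, each with 1 probe set, out of 19938 genes measured. Of these 8, 4 were above background on at least 1 array (Cd209a, Cd209d, Clec10a and Mgl2), and 4 were not above background on any (Cd209b, Cd207, Mrc1 and Mrc2). The label of the group therefore holds for DC-SIGN and galactose-type lectins, while both mannose receptor genes and langerin gave no signal above background in these cells.

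C-type lectins of this kind sit in the plasma membrane of dendritic cells (DCs) and macrophages, bind sugars on glycoproteins and microbes with a calcium-dependent domain, and carry the bound material into endosomes, from where peptides can be presented to T cells. DC-SIGN-type lectins, langerin and the mannose receptor prefer mannose and fucose, and the galactose-type lectins prefer galactose and N-acetylgalactosamine. In the mouse, SIGN-R1 (Cd209b) is known from marginal zone macrophages of the spleen, langerin from Langerhans cells and some DC subsets, the mannose receptor from tissue macrophages and sinusoidal endothelium, and Mrc2, also called Endo180, from fibroblasts that take up collagen. Clec10a and Mgl2 are known from DCs and from macrophages exposed to interleukin-4.

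RNA of sorted CD11c(hi) CD11b+ DCs from mouse spleen was measured on whole-transcript arrays, 1 array for each of 3 groups, each made from the pooled spleens of 2 to 3 mice. The groups were Esam(lo) GFP(hi) cells of RBPJflox/flox CD11c-Cre mice, in which Cre is driven by the CD11c promoter and acts in every cell that uses it, then the Esam(hi) GFP(lo) and the Esam(lo) GFP(hi) subset of controls. Lymphoid and erythroid cells had been depleted on magnetic columns before the sort. Controls were RBPJflox/flox littermates without Cre, and all mice, controls included, carried the Cx3cr1-GFP reporter; the sources used here give no age of the mice. RBPJ is the nuclear protein through which Notch receptors act on DNA, and Esam, a junctional adhesion protein, is used to split splenic CD11b+ DCs into subsets. With 1 array per group there are no replicates, so no difference below has a replicate check, a test or an error, and each compares single arrays; the precision of all values is limited by this number of arrays.

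Values are log2 expression after RMA. A gene was taken as above background where it exceeded the 95th percentile of that array's 1194 olfactory and vomeronasal receptor genes, a level of 6.87 on the array labelled RBPJ-null, 7.17 on the control Esam(hi) array and 6.76 on the control Esam(lo) array. A difference was counted where the values as read were at least 2-fold apart and the brighter array was above background. If the dimmer of the arrays was at background, a minimum fold is given, taken against the background level of that array; a counted difference can therefore have a minimum fold below 2. All 10 classical DC genes examined, among them Itgax, Zbtb46, Flt3 and H2-Ab1, were above background on all 3 arrays. Rbpj (probe set 10521913) read 10.04 on the array labelled RBPJ-null, 9.85 on the control Esam(hi) array and 9.85 on the control Esam(lo) array. The signal of this probe set was thus not lower in the labelled cells. A second Rbpj probe set, 10521911, read 5.63, 6.11 and 5.63 in the same order of arrays, below background on all 3. The probes' place relative to the floxed exons is unknown here, and every direction drawn from the labelled array rests on its label. Of the Notch target genes, Dtx1 read 8.56 on the labelled array, 11.25 on the control Esam(hi) array and 9.55 on the control Esam(lo) array. Hes1 read 7.91, 7.87 and 8.66 in that order of arrays, so both were lower on the labelled array than in control Esam(lo) cells, with log2 differences of -0.9968 for Dtx1 and -0.75 for Hes1, each short of 2-fold. Esam read 6.12, 7.79 and 6.57 and Cx3cr1 9.58, 8.32 and 9.58 in that same order, so both followed the sort, with Esam below background on both Esam(lo) arrays. The remaining genes of this check list were above background on all 3 arrays: Notch2 at 11.50, 10.87 and 11.40, Itgam at 10.79, 9.50 and 10.57, and Itgax at 12.44, 12.36 and 12.50. The Esam(hi) array also differed from the other arrays in scale: over all genes above background the median difference was 0.31 for the labelled array minus the control Esam(hi) array, 0.00 for the labelled array minus the control Esam(lo) array, and -0.32 for the control Esam(hi) minus the control Esam(lo) array. The same differences are therefore also given below after subtracting their trend on the mean level of the genes.

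RefSeq (build GRCm38.p6) gave a promoter window, from 250 bases before to 50 bases after a transcript start, for 6 of the 8 genes. Clec10a and Mrc2 had no window in the sequences used here, so neither was searched for motifs. The windows of Mgl2 (chr11:70130107-70130406, plus strand), Cd209a (chr8:3748935-3749234, minus strand) and Cd209d (chr8:3878450-3878749, minus strand) are shown because these genes were above background and differed between arrays. Each is written along the gene's strand, and capitals mark matches to the searched motifs.
Mgl2: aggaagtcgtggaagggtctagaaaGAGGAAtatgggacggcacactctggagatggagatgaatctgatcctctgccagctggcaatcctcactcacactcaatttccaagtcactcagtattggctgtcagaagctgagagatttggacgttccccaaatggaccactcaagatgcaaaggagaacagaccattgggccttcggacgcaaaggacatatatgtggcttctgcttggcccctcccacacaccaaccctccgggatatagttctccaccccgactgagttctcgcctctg
Cd209a: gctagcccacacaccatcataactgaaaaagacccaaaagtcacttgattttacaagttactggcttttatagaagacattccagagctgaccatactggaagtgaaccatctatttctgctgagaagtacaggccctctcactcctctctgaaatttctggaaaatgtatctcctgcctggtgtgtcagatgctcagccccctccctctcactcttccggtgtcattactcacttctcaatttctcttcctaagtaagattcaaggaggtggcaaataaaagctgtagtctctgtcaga
Cd209d: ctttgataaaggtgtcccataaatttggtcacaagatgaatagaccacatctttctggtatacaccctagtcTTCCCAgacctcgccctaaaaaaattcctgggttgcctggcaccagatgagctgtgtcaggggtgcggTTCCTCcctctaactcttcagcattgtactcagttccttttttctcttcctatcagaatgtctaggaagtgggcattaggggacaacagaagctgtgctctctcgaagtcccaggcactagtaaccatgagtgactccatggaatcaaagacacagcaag

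The motifs searched on both strands were the RBPJ core TGGGAA, its longer form GTGGGAA, the core GAGGAA bound by PU.1, an ETS factor of myeloid cells, and TTCNNNNGAA, a palindrome of the kind STAT6 binds. The longer RBPJ form contains the shorter one. The Mgl2 window held 1 GAGGAA, at position -225 from the start, and no match to the other motifs. The Cd209d window held 1 TGGGAA, read on the opposite strand at position -178, and 1 GAGGAA on the opposite strand at position -110. The Cd209a window held none of the 4 motifs. Over all 32851 promoter windows in the table, 25.6% held TGGGAA, 6.38% held GTGGGAA, 28.3% held GAGGAA and 6.95% held TTCNNNNGAA. Of the members below background, the Cd209b window held 1 TGGGAA, the Mrc1 window 3 and the Cd207 window 1 GAGGAA.

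Clec10a, which encodes the galactose-type lectin MGL1 (CD301a), was above background on the Esam(lo) arrays only. It (probe set 10377782, Entrez gene 17312, chromosome 11) read 8.96 on the array labelled RBPJ-null, 4.83 on the control Esam(hi) array and 7.75 on the control Esam(lo) array. The labelled array was highest, and the Esam(hi) array was far below its background level of 7.17. Clec10a was at least 3.47-fold higher on the labelled array relative to control Esam(hi) cells, a measured log2 difference of 4.14. With the level trend removed it was 4.26. Both sizes rest on an Esam(hi) value below background, and no rank among genes is given from them.

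Clec10a also differed between the Esam(lo) arrays. Its signal was 2.31-fold higher in the labelled cells relative to the control Esam(lo) cells (log2 difference 1.21), the 6th highest of 9348 genes by the values as read. Between the controls it was at least 1.5-fold lower in Esam(hi) relative to Esam(lo) cells, with a measured log2 difference of -2.93.

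Mgl2, the neighbouring gene for MGL2 (CD301b), had the same order of arrays at lower signal. It (probe set 10377774, Entrez gene 216864, chromosome 11) read 7.92 on the array labelled RBPJ-null, 5.88 on the control Esam(hi) array and 6.92 on the control Esam(lo) array. Its value on the control Esam(lo) array lay 0.16 above the background level, and the Esam(hi) value was below background. Mgl2 was at least 1.69-fold higher in the labelled cells relative to control Esam(hi) cells (measured log2 difference 2.04). Against the control Esam(lo) array the log2 difference was 0.9996, which falls just short of 2-fold and was the 8th highest of 9348 genes. For the control Esam(hi) minus the control Esam(lo) array it was -1.04 on the values as read. No fold is given there, because the Esam(lo) value lay below the background level of the Esam(hi) array.

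**Figure D1:**
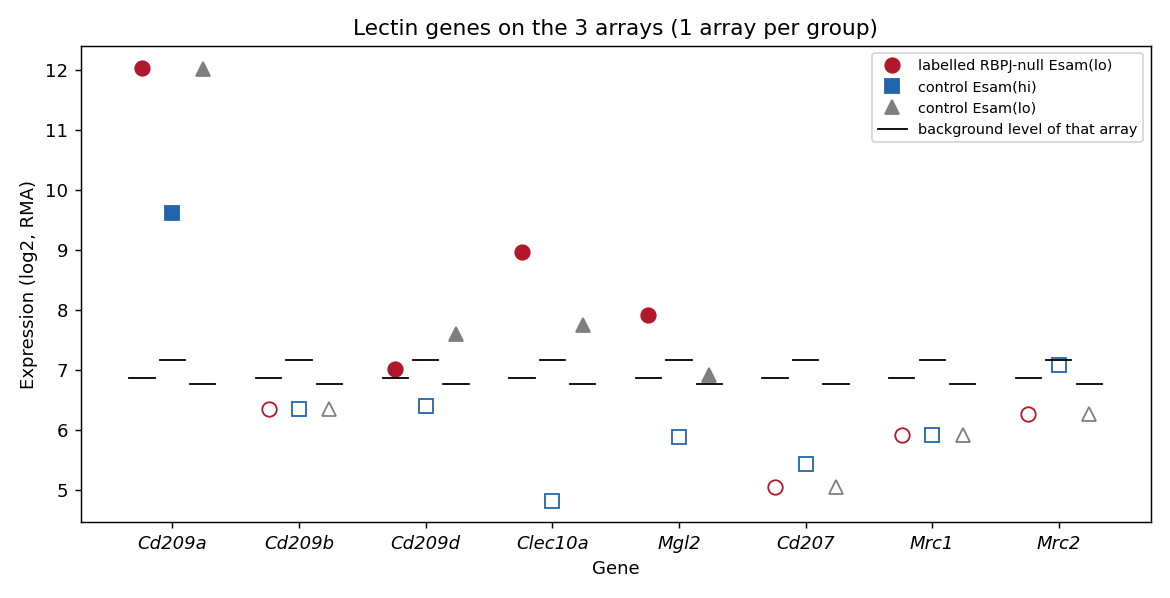
Expression (log2, RMA) of the 8 lectin genes on the array labelled RBPJ-null Esam(lo), the control Esam(hi) array and the control Esam(lo) array, 1 point per array; filled points are above that array's background level (black dash) and open points are not. Clec10a and Mgl2 are highest on the labelled array at 8.96 and 7.92, Cd209a is near 12 on both Esam(lo) arrays against 9.63 on the Esam(hi) array, and Cd209b, Cd207, Mrc1 and Mrc2 have open points only.

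Clec10a and Mgl2 lie side by side in the RefSeq gene order of chromosome 11, so their neighbours were read as well. Asgr1 and Asgr2, the asialoglycoprotein receptor genes that precede Mgl2 and belong to the same lectin family, were not above background on any array. Slc16a11 and Slc16a13, transporter genes that follow Clec10a, differed little: Slc16a13 read 7.85 on the labelled array, 7.84 on the control Esam(hi) array and 7.94 on the control Esam(lo) array, and Slc16a11 was below background on all 3. Of the 10 protein-coding genes in this window, 6 were above background on at least 1 array. Mgl2 and Clec10a were the only genes of the window with a counted difference in any comparison. Both were counted as lower in Esam(hi) relative to Esam(lo) control cells, where 11.6% of all genes above background were. They were also counted as higher on the labelled than on the control Esam(hi) array, where 12.9% were. The products of Clec10a and Mgl2 are close relatives, and whether their probes share signal was not tested.

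Cd209a, the mouse gene named for DC-SIGN and a known surface marker of CD11b+ and monocyte-derived DCs, was the member with signal above background on all 3 arrays. It (probe set 10576784, Entrez gene 170786, chromosome 8) read 12.05 on the array labelled RBPJ-null, 9.63 on the control Esam(hi) array and 12.01 on the control Esam(lo) array. The Esam(lo) arrays lay together and the Esam(hi) array lay apart from both. Cd209a was 5.34-fold higher in the labelled cells relative to control Esam(hi) cells (log2 difference 2.42, or 2.01 with the trend removed), with both values above background. The labelled and the control Esam(lo) arrays differed by 0.03. Between the controls it was 5.23-fold lower in Esam(hi) relative to Esam(lo) cells, a log2 difference of -2.39 (-1.99 with the trend removed).

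Cd209d, the gene for SIGN-R3, showed another order. It (probe set 10576807, Entrez gene 170779, chromosome 8) read 7.02 on the array labelled RBPJ-null, 6.40 on the control Esam(hi) array and 7.61 on the control Esam(lo) array. It was highest on the control Esam(lo) array, and its value on the labelled array lay just above that array's background. For the labelled array minus the control Esam(lo) array the log2 difference was -0.58, short of 2-fold, and 48 of 9348 genes differed further in that direction. Cd209d was at least 1.36-fold lower in Esam(hi) relative to Esam(lo) control cells (measured log2 difference -1.20). For the labelled array minus the control Esam(hi) array the difference was 0.62, also short of 2-fold, and no fold is given because the labelled value lay below the Esam(hi) background level.

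Cd209b, Cd207, Mrc1 and Mrc2 gave no signal above background. Cd209b had the same value of 6.35 on all 3 arrays, and Mrc1 had 5.92 on all 3. RMA's median polish over few arrays can return exact ties; 19.0% of all genes, and 25.7% of the 10246 genes below background on every array, were tied on all 3. Equal values are therefore no measure of equal expression here. Cd207 read 5.06 on the labelled array, 5.44 on the control Esam(hi) array and 5.05 on the control Esam(lo) array. Mrc2 read 6.28 on the labelled array, 7.09 on the control Esam(hi) array and 6.28 on the control Esam(lo) array; the Esam(hi) value came within 0.08 of that array's background level of 7.17.

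The cells for which these silent members are known were read from their own markers. Marco and Siglec1, which mark marginal zone and metallophilic macrophages, were below background on all 3 arrays. The other genes of that list were not: Nr1h3, a nuclear receptor gene, read 7.36, 7.24 and 7.36, above background on all 3, and Msr1, a scavenger receptor gene, read 7.93, 7.16 and 7.96, above background on both Esam(lo) arrays. Epcam and Cdh1 of Langerhans cells were below background on all 3 arrays, as were 7 of 8 endothelial genes (Cdh5, Stab1, Stab2, Lyve1, Kdr, Tek and Plvap). The eighth, Pecam1, which leukocytes also express, was above background on all 3 arrays at 8.69, 8.76 and 8.69. Among 7 fibroblast and stromal genes, Col1a1 and Col1a2 were above background on all 3 arrays, and Dcn, Lum, Pdgfra, Pdgfrb and Col3a1 on none. Col1a1 read 7.44 on the labelled array, 8.40 on the control Esam(hi) array and 7.72 on the control Esam(lo) array, and the summed linear signal of the 7 genes was 529, 793 and 569 in the same order of arrays. Mrc2 values lie at background, so no order of arrays is read from them; the part of stromal RNA in them was not tested.

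**Figure D2:**
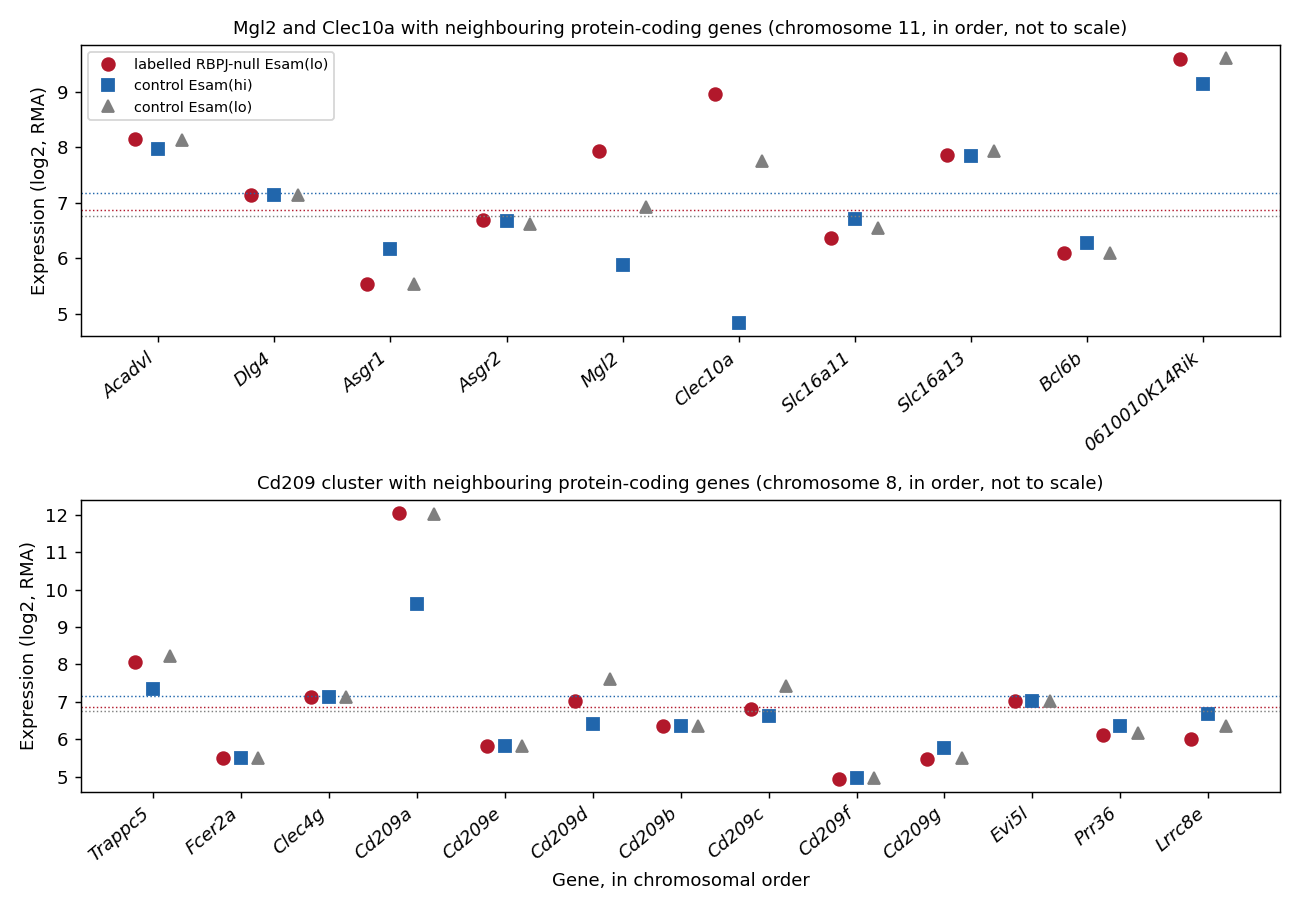
Expression (log2, RMA) of the genes around Mgl2 and Clec10a (upper panel) and of the Cd209 cluster (lower panel) in chromosomal order, 1 point per array, with a dotted line at each array's background level. In the upper panel only Mgl2 and Clec10a separate the arrays by 2-fold or more on the values as read; in the lower panel Cd209a does so at high signal, and Cd209d and Cd209c have their highest value on the control Esam(lo) array.

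Within the Cd209 cluster of chromosome 8 the genes differed in their order of arrays. In RefSeq order the cluster runs Cd209a, Cd209e, Cd209d, Cd209b, Cd209c, Cd209f and Cd209g, with Clec4g and Fcer2a before it. Cd209c, a relative that is not among the 8 genes, had its values in the order of Cd209d: 6.80 on the labelled array, 6.61 on the control Esam(hi) array and 7.42 on the control Esam(lo) array, above background only on the last. Cd209e, Cd209f and Cd209g were below background on all 3 arrays. Clec4g, which encodes a lectin of liver and lymph node sinusoidal endothelium, was tied at 7.12 on all 3, above background on the Esam(lo) arrays only. Whether probes of Cd209d and Cd209c share signal was not tested. Cd209a and Cd209d were the only genes of the window with a counted difference in any comparison, out of 13 on the array. Both were counted as lower in Esam(hi) relative to Esam(lo) control cells, where 11.6% of all genes above background were.

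Set against the arrays as a whole, 3 of the 8 genes were counted as higher in the labelled cells relative to control Esam(hi) cells (Cd209a, Clec10a and Mgl2) and none as lower, where 12.9% of all 9312 genes above background were higher and 1.18% lower. Shares of all genes counted as higher or lower, here and below, are of genes whose brighter array was above background. Only 4 of the 8 lectin genes were among these, and counts from other lists likewise include genes below background. With the trend removed the same 3 were called, against 6.09% of all genes higher and 2.39% lower. Between the labelled and the control Esam(lo) array 1 of the 8 was 2-fold higher (Clec10a), where 0.0749% of 9348 genes were. These were 7 genes in all, and a further 18 (0.193%) were lower. In control Esam(hi) relative to control Esam(lo) cells 4 of the 8 were counted as lower (Cd209a, Cd209d, Clec10a and Mgl2), where 11.6% of 9196 genes were lower and 0.816% higher; with the trend removed the same 4 were called, against 5.3% lower and 1.96% higher. Where the Esam(hi) value lies below background the count rests on that value as read. By the minimum folds, Cd209a and Clec10a reached 2-fold in the labelled cells against control Esam(hi) cells and Mgl2 did not, and between the controls Cd209a alone did. The 3 comparisons share arrays and are not independent of each other. Other thresholds changed which members were counted. At 1.5-fold Mgl2 joined Clec10a between the labelled and control Esam(lo) arrays (0.396% of all genes), and Cd209d joined the 3 others against the control Esam(hi) array (32.4%). At 3-fold no member was left between the Esam(lo) arrays (0.0321%), and Cd209a and Clec10a were left between the controls (2.13%). A filter at each array's 75th percentile of all probe sets left Cd209a and Clec10a against the control Esam(hi) array (19.0%) and Cd209a between the controls (16.7%), and a background at the 99th percentile of the receptor genes, chosen after seeing the data, left all but Mgl2 between the controls (14.5%). The 4 genes above background passed the filter mostly through the Esam(lo) arrays, so their counts carry no weight beyond the values above.

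**Figure D3:**
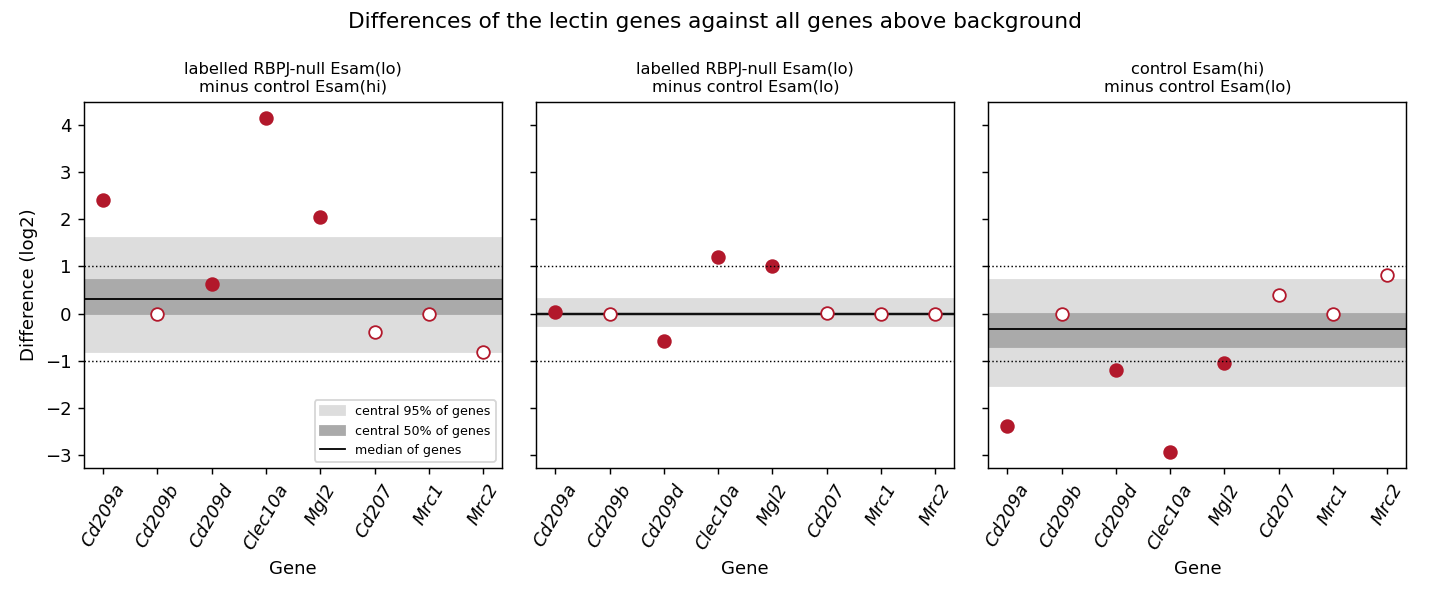
Log2 differences of the 8 genes in the 3 comparisons, over the central 95% (light grey), the central 50% (dark grey) and the median (line) of all genes above background; filled points are genes whose brighter array was above background, and dotted lines mark 2-fold. Clec10a at 4.14, Cd209a at 2.42 and Mgl2 at 2.04 lie above the light band on the left, and in the middle panel Clec10a and Mgl2 lie above and Cd209d below a band that runs from -0.27 to 0.30.

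The spread of all genes shows how the 3 comparisons differ in scale. The central 95% of genes ran from -0.27 to 0.30 between the labelled and the control Esam(lo) array, and Clec10a, Mgl2 and Cd209d lay outside it. Of all 19938 genes measured, 52.0% had exactly the same value on these 2 arrays. The narrow band, and ranks and shares read from this pair, therefore rest in part on ties and are no measure of how alike the cells were. It ran from -0.81 to 1.61 for the labelled minus the control Esam(hi) array, where Clec10a, Cd209a and Mgl2 lay outside. For the control Esam(hi) minus the control Esam(lo) array it ran from -1.54 to 0.71, and only Clec10a and Cd209a of the members above background lay outside. These bands describe genes on single arrays and are not an error of any value.

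The differences of the 4 genes above background moved little with the scaling of the arrays. Centring on the median, quantile normalization and removal of the level trend gave 4.03 to 4.26 for Clec10a, 2.01 to 2.53 for Cd209a, 2.06 to 2.16 for Mgl2 and 0.71 to 0.78 for Cd209d in the labelled array minus the control Esam(hi) array. No member above background changed its direction under these 3 scalings in any comparison.

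**Figure D4:**
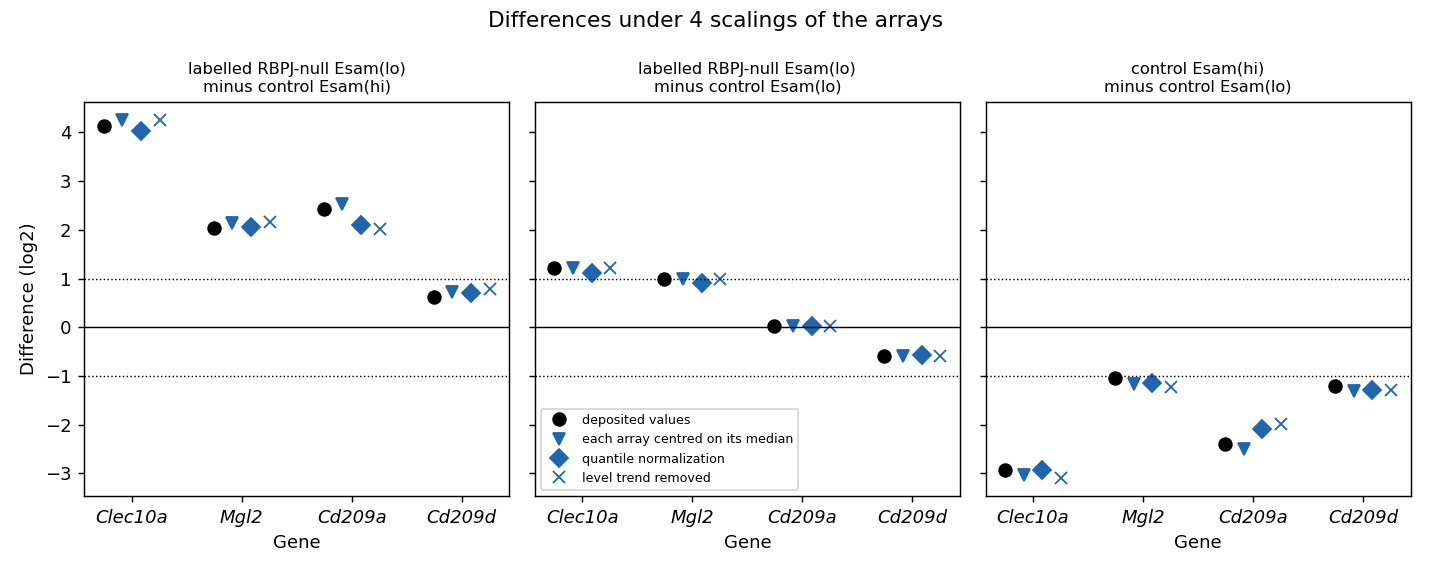
Log2 differences of Clec10a, Mgl2, Cd209a and Cd209d in the 3 comparisons on the deposited values (black) and under 3 other scalings of the arrays (blue); dotted lines mark 2-fold. The points of a gene stay on the same side of 0 in each panel, Cd209a is close to 0 in the middle panel, and Mgl2 there lies at the 2-fold line.

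The genes whose values over the 3 arrays were most like those of each member were found by the Euclidean distance, in log2 units, of mean-centred values. They were sought among 9066 protein-coding genes above background on at least 1 array. Genes with provisional symbols, chemosensory receptor genes and antigen receptor gene segments were left out. With 3 arrays this is a weak measure, used here as a description. Nearest to Cd209a were Naaa, a lysosomal amidase that is also in the CD8+ DC marker list (distance 0.06), Selenop, a secreted selenoprotein (0.07), and Sar1b, a GTPase of vesicle export (0.10). Naaa, for example, read 11.13 on the labelled array, 8.78 on the control Esam(hi) array and 11.11 on the control Esam(lo) array. Nearest to Clec10a were Thbs1, encoding thrombospondin (0.50), Ly6a2 (0.58) and Lyz1, a lysozyme gene (0.60). Lyz1 read 10.73 on the labelled array, 7.42 on the control Esam(hi) array and 9.75 on the control Esam(lo) array, and thus had the same order of arrays as Clec10a.

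Nearest to Mgl2 were Hcar2, the receptor for niacin and hydroxybutyrate (distance 0.16), the chemokine receptor gene Ccr1 (0.21) and Lipo3 (0.33). Hcar2 read 8.84 on the labelled array, 6.70 on the control Esam(hi) array and 7.97 on the control Esam(lo) array. Nearest to Cd209d were Csf2rb2, a beta chain gene of cytokine receptors (0.08), Tgfb1, encoding the cytokine TGF-beta (0.09), and the orphan receptor gene Gpr141 (0.11). For Clec10a, Mgl2 and Cd209d the Esam(hi) value lies below background, so these distances rest in part on values at background.

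Other C-type lectin families of myeloid cells also differed between the control arrays. In the Dcir and Dectin-2 cluster 3 of 9 genes were lower by 2-fold or more in Esam(hi) relative to Esam(lo) cells. They were Clec4a1 (9.33 in Esam(hi) and 11.05 in Esam(lo) cells), Clec4a3 (6.69 in Esam(hi) and 10.13 in Esam(lo) cells) and Clec4e, the receptor Mincle (5.71 in Esam(hi) and 9.03 in Esam(lo) cells). In the Dectin-1 cluster 3 of 7 were lower: Clec12a, Clec9a and Clec7a, the last being Dectin-1 itself, at 9.36 in Esam(hi) and 11.56 in Esam(lo) cells. The share lower was 11.6% of the 9196 genes above background, a set that held 7 of the 9 and 4 of the 7 genes. Between the labelled and the control Esam(lo) array none of these 16 genes was 2-fold apart, and the largest of the named differences was 0.31 for Clec12a; Clec10a, at 1.21, differed there. Of 13 other genes of the DC-SIGN, asialoglycoprotein receptor and mannose receptor families, 3 were above background on at least 1 array. They were Cd209c, Clec4g and Ly75, the gene for DEC-205, and none was 2-fold apart on the deposited values. Ly75 read 7.57 on the labelled array, 8.20 on the control Esam(hi) array and 7.32 on the control Esam(lo) array, opposite in order to Cd209a between the controls. With the trend removed its difference for the control Esam(hi) minus the control Esam(lo) array was 1.05, past 2-fold.

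**Figure D5:**
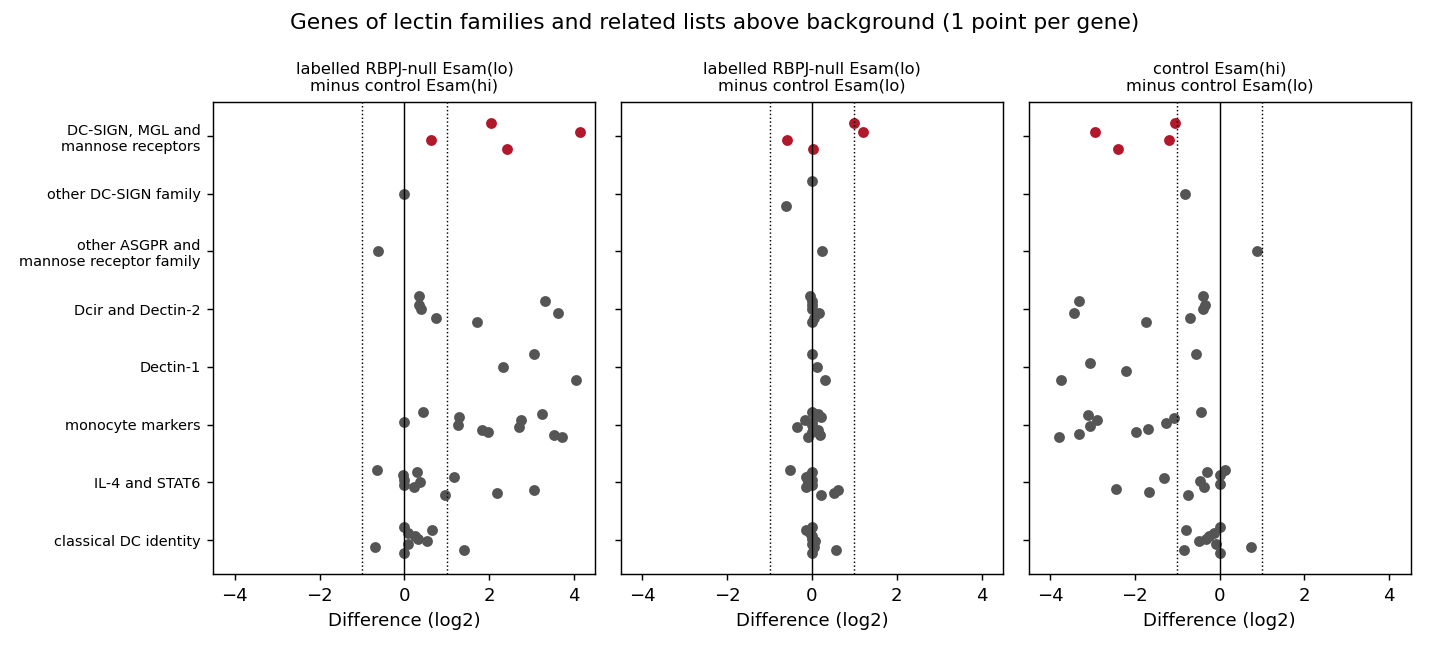
Log2 differences in the 3 comparisons for genes of lectin families and related lists, 1 point per gene whose brighter array was above background; dotted lines mark 2-fold (ASGPR, asialoglycoprotein receptor). In the middle panel the points of the other lists lie between the dotted lines, and of the DC-SIGN, galactose-type and mannose receptor genes Clec10a lies beyond 1 and Mgl2 at it.

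Because interleukin-4, acting through STAT6, is known to raise Clec10a, Mgl2 and Mrc1 in macrophages, other genes of that response were read. Of 16 listed, 15 were on the array and 11 above background on at least 1 array. Against control Esam(hi) cells 3 of them (Il13ra1, Chil3 and Pparg) were higher in the labelled cells by 2-fold or more (12.9% of all genes were), and these 3 were also lower in Esam(hi) relative to Esam(lo) control cells (11.6% of all genes). With the trend removed 3 were still counted as higher, and Tgm2, a transglutaminase gene, as lower (-1.05, at 10.71 in the labelled and 11.36 in control Esam(hi) cells). Il13ra1, a receptor subunit for interleukin-13 and interleukin-4, read 10.92 on the labelled array, 7.86 on the control Esam(hi) array and 10.30 on the control Esam(lo) array. Chil3, a chitinase-like protein of macrophages, read 9.39 on the labelled array, 7.21 on the control Esam(hi) array and 8.87 on the control Esam(lo) array. Both had the order of arrays of Clec10a. Pparg (8.19, 7.03 and 8.35 in that order of arrays) and Il4ra (10.68, 10.46 and 10.83) did not, each being highest on the control Esam(lo) array. None of the 11 was 2-fold apart between the labelled and the control Esam(lo) array. The list's median was 0.30 for the labelled minus the control Esam(hi) array, close to the 0.31 of all genes, and Retnla, Arg1, Ccl17 and Ccl24 were below background on all 3 arrays. The part of interleukin-4 in the lectin values was not tested.

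Most monocyte markers also differed between the control Esam(hi) array and the Esam(lo) arrays. All 11 monocyte markers on the array were above background on the array labelled RBPJ-null and on the control Esam(lo) array, and 5 were on the control Esam(hi) array. Their summed linear signal was 22580 on the labelled array, 6359 on the control Esam(hi) array and 22150 on the control Esam(lo) array. Of the 11 markers, 9 were counted as higher in the labelled cells relative to control Esam(hi) cells (12.9% of all genes), or 7 with the trend removed (6.09%). Cx3cr1 is among the 9 and not among the 7. The cells were sorted on its GFP reporter, so its direction was set by the gate and adds nothing to the count. Not counted were Fcgr1, tied at 6.97 on all 3 arrays, and Sirpa (12.16, 11.72 and 12.16 in the same order). Ccr2, a chemokine receptor of inflammatory monocytes, read 9.84 on the labelled array, 6.32 on the control Esam(hi) array and 9.64 on the control Esam(lo) array. Between the labelled and the control Esam(lo) array none of the 11 was 2-fold apart. In pooled RNA of sorted cells, fewer cells of a type and less RNA per cell cannot be told apart, and the part of monocyte-like cells in the lectin differences was not tested.

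All 8 neutrophil genes were above background on the 3 arrays, with a summed linear signal of 20110 on the labelled array, 8440 on the control Esam(hi) array and 18720 on the control Esam(lo) array. Of these 8, 6 were counted as higher on the labelled array relative to the control Esam(hi) array (12.9% of all genes), or 3 with the trend removed (6.09%). The other two, the granule genes Mpo (8.74, 9.28 and 8.31) and Elane (8.74, 8.95 and 8.60), read highest on the control Esam(hi) array, and with the trend removed Mpo was counted there as higher than on the control Esam(lo) array (1.37). Red pulp macrophage genes differed less, with sums of 3748, 2660 and 3738 over 13 genes in the same order. Cd163, Cd5l, Timd4, Slc40a1 and Mertk were below background on all 3 arrays. Adgre1, the brightest gene of this list (10.56, 10.32 and 10.52), was above background on all 3. So were C1qc (8.14, 7.71 and 8.14) and Vcam1 (7.35, 7.34 and 7.35). Spic (7.52, 6.89 and 7.68) and C1qa (7.30, 6.90 and 7.49) were above background on the Esam(lo) arrays only. The widest ranges of this list were those of C1qb (9.06, 7.42 and 9.06), Hmox1 (8.40, 7.50 and 8.59) and Axl (8.40, 7.35 and 8.14). Of the 13, 2 (C1qb and Axl) were counted as higher on the labelled than on the control Esam(hi) array (12.9% of all genes), or 1 with the trend removed (6.09%). Of 9 CD8+ DC markers, Cd8a, Xcr1 and Itgae were below background on all 3 arrays, and the sums were 5923, 6210 and 6658. Within this list Clec9a (9.20, 6.15 and 9.20) and Naaa (11.13, 8.78 and 11.11) were lower on the control Esam(hi) array, as Cd209a was, while Wdfy4 (11.03, 12.15 and 11.42) was highest there. The sums were 1523, 978 and 1486 for 5 plasmacytoid DC genes, with Siglech and Ly6d below background on all 3. Tcf4 of this list read 9.62, 8.34 and 9.55, Ccr9 7.99, 7.32 and 7.76, and Bst2 8.20, 8.16 and 8.37. For 5 B cell genes the sums were 857, 642 and 789, with Cd79a, Ms4a1 and Pax5 below. Cd79b read 9.29, 8.20 and 9.12, and Blk 6.60, 7.59 and 6.60, above background on the Esam(hi) array alone. For 4 T cell genes the sums were 725, 733 and 724, with Cd3d and Cd3g below. Cd3e of this list read 7.65, 7.65 and 7.64, and Cd5 8.77, 8.80 and 8.77, each above background on all 3 arrays. The 6 natural killer cell genes had 2117, 980 and 2149, with Ncr1, Klrb1c, Prf1 and Gzma below. Klrd1 (10.60, 9.46 and 10.60) and Klrk1 (8.60, 6.56 and 8.74) of that list were lowest on the control Esam(hi) array, as Cd209a was. The part of these cells in the lectin values was not tested.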

How the data were processed

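Affymetrix Mouse Gene 1.0 ST arrays measured RNA of 3 sorted DC populations. The values deposited by the authors are log2 expression values, as their range shows, and the submitters' processing notes name RMA and Affymetrix Expression Console; versions, genome build and which arrays were normalized together are not stated there. Of 35556 probe sets, 21789 have 1 gene in the platform annotation, 1621 several and 12146 none; only the first were used. Symbols were looked up by Entrez number in RefSeq (GRCm38.p6): 21698 were found and none changed. The 999 genes with several probe sets took the probe set of highest mean. Members and gene lists were chosen with earlier results of these data known; of 185 list entries, 175 were on the array. Named genes are the members, a sort and target check list, the 3 of each list with the widest range, and the 3 most like each member, plus a few named after their values were seen. Trend removal was a lowess fit (fraction 0.3). The calling code was tested on simulated data. Python 3.11.15, pandas 2.3.3 and statsmodels 0.14.6 were used.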

Additional observations from a re-analysis of the deposited data

How the results depend on the processing

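No paired analysis was possible because each group has 1 array; for the same reason no replicate could be left out. At 1.5-fold, 2 of the lectin genes (Clec10a and Mgl2) were counted higher on the array labelled RBPJ-null than on the control Esam(lo) array, and at 3-fold 0 were, against 1 at 2-fold. For the control Esam(hi) minus the control Esam(lo) array, 4 were counted at 2-fold and 2 at 3-fold (Cd209a and Clec10a). Filtering at the 75th percentile of all probe sets left 1 (Cd209a), since the other 3 then no longer passed the filter. A background at the 99th percentile of the chemosensory genes, chosen after seeing the data, left 3, without Mgl2. For the labelled array minus the control Esam(hi) array the count stayed between 2 and 4 under all alternatives. No filter on dim genes, centring, quantile normalization, trend removal and the mean over probe sets changed none of the 3 counts. All 96 recomputed differences of single members kept their call. This number carries little weight, since it includes the 4 members below background on every array, which the background rule keeps from being called. Each member also has 1 probe set, so the mean over probe sets could not change its values. Depth does not apply to arrays; signal over background limits Mgl2 and Cd209d, whose values lie near background on at least 1 Esam(lo) array.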

Other observations

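Genes that serve the lectins after binding were also read. All 13 genes of endocytic uptake and endosomal processing were above background on both Esam(lo) arrays and 12 on the control Esam(hi) array. Of these, 4 were at least 2-fold higher in cells labelled RBPJ-null than in control Esam(hi) cells, where 12.9% of all genes were, and with the level trend removed 0 were. Lamp1, a lysosomal membrane protein, read 11.22 on the labelled array, 9.91 on the control Esam(hi) array and 11.35 on the control Esam(lo) array. Ctss, the cathepsin that trims the invariant chain of MHC class II, read 11.59 on the labelled array, 10.22 on the control Esam(hi) array and 11.60 on the control Esam(lo) array. Of 10 ligand and signalling genes on the array, 2 were at least 2-fold higher on the labelled than on the control Esam(hi) array, also with the trend removed (6.09% of all genes). Ceacam1, an adhesion molecule that carries glycans bound by DC-SIGN in humans, read 10.30 on the labelled array, 8.44 on the control Esam(hi) array and 10.48 on the control Esam(lo) array. Fcer1g, the signalling chain shared by Fc receptors and several C-type lectins, read 12.26 on the labelled array, 10.82 on the control Esam(hi) array and 12.30 on the control Esam(lo) array. Ptprc, encoding CD45, a ligand of galactose-type lectins, read 12.30 on the labelled array, 12.31 on the control Esam(hi) array and 12.42 on the control Esam(lo) array.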
